A study of Mus musculus with 10 samples.

Results

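The nuclear genes of respiratory complexes II to V were followed in mouse microglia taken from adult brain and from cultures. A gene was a member when its symbol was Sdha, Sdhb, Sdhc, Sdhd or Cyc1 or began with Uqcr, Cox4 to Cox8 or Atp5, without regard to its values, and 46 of the 18292 gene symbols were members. Complex II had 4 members, complex III 9, complex IV 16 and complex V 17. All mice were C57BL/6, and every library was a 10x Genomics 3' library of live cells sorted as CD11b high and CD45 intermediate. The labels name no treatment, but by the study's methods hPDGF, a growth factor, went into the slice medium at each change, and it is not named for the mixed glial cultures or the adult mice. Adult microglia came straight from the brains of mice aged 10 to 15 weeks. Slice microglia came from coronal brain slices of pups at postnatal days 1 to 4, which were kept on a membrane for 1 day, 1 week or 3 weeks, with slices pooled where needed. In vitro microglia came from mixed glial cultures of cortices taken at postnatal day 2 and were collected after 3 weeks. Each of these 5 groups had 2 libraries, which the series' design text calls biological replicates without naming the animals, so p-values measure the spread between libraries. The adult mice thus differ from every culture in age as well as in culture, and the effects of age, culture and medium cannot be told apart.

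The respiratory chain passes electrons to oxygen and stores the energy as a proton gradient across the inner mitochondrial membrane. Complex II, succinate dehydrogenase, takes electrons from succinate of the citric acid cycle. Complex III passes them to cytochrome c, complex IV passes them on to oxygen, and complex V, the ATP synthase, makes ATP from the gradient. All subunits of complex II come from nuclear genes, whereas complexes III, IV and V also hold subunits made from mitochondrial DNA. Several subunits of complex IV have isoforms that are used in some tissues only, and the subunit of the membrane ring of complex V is encoded by several genes. Microglia are known to draw on oxidative phosphorylation at rest and to shift towards glycolysis when activated by inflammatory stimuli.

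The libraries held 61 to 3799 cells each, 19059 cells in all, with 385373 to 39689540 UMIs per library, where a UMI marks 1 captured molecule. Depth was lowest in adult replicate 2 (a median of 1858 UMIs per cell) and highest in vitro (up to 13966), and slice 1 week had only 148 and 61 cells. The study removed outlying cells by t-SNE and counted fewer microglia at 1 week, with a range for its other samples that is lower at both ends. That removal was not applied here. Of the 148 cells of slice 1 week replicate 1, 148 had at least 3 UMIs of the neutrophil and monocyte lists, and 23 had over 5% of their UMIs from these lists. Of the 61 cells of replicate 2, these were 3 and 1. At 1 day 402 of 518 and 1014 of 1014 cells had at least 3 such UMIs, and 54 and 105 were over 5%. All 13 listed microglia markers had counts in every library, with a summed level of 60606 to 62267 CPM in adult and 9492 to 36078 CPM in the cultures. The 8 neutrophil markers summed to 7625 and 22333 CPM at 1 day and to 40123 and 955 CPM at 1 week, but to at most 8.39 CPM elsewhere. The 10 mitosis genes summed to 29.4 to 35.4 CPM in adult and 196 to 500 CPM in the cultures. The sum of 5 perivascular macrophage markers was highest in vitro with 2233 and 2104 CPM, most of it Pf4 (1873 and 1788) and Mrc1 (351 and 306). Cbr2 was at 7.39 and 8.52 CPM in vitro and at most 7.78 elsewhere. Lyve1 was lower in vitro (0.648 and 0.277) than at 1 day (4.64 and 6.19), and so was Cd163 (0.736 and 1.11 against 2.18 and 1.57). Markers of neurons, 6 genes of which 2 to 6 had counts in a library, summed to 1.45 and 2.21 CPM in adult, 19.1 and 42.6 (1 day), 352 and 545 (1 week), 4.30 and 10.2 (3 weeks) and 0.454 and 0.618 in vitro, and of the 5 tested, 3, 4, 2 and 0 were higher than adult in those cultures. Most of the neuron sum was Meg3 at 1 day (37.1 and 12.2 CPM) and at 1 week (299 and 519 CPM), where each other listed gene was at 21.3 CPM or less. The 7 oligodendrocyte markers summed to 45.6 to 140.3 CPM in the cultures and 136 and 156 in adult, with 3 of 5 tested higher and 2 lower at 3 weeks. The part of either list in the results was not tested. Adult replicate 1 and slice 3 weeks replicate 1 carry the study label TST11200, and the other 8 libraries carry TST11247.

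The members took up more of the RNA in every culture than in adult microglia. Summed over the 46 genes, they made up 0.900% ± 0.00850 (SD, n = 2 libraries) of all UMIs in adult, 1.80% ± 0.0436 at 1 day, 1.5% ± 0.0796 at 1 week, 1.49% ± 0.0142 at 3 weeks and 1.80% ± 0.0560 in vitro. The share was therefore 2.00 times the adult share at 1 day, 1.67 times at 1 week, 1.65 times at 3 weeks and 2.01 times in vitro, and no culture library overlapped an adult library. The complexes differed in how far they moved. Complex IV went from 0.314% ± 0.00776 in adult to 0.750% ± 0.0248 in vitro, and complex V from 0.358% ± 0.00882 to 0.681% ± 0.0208. Complex III went from 0.173% ± 0.00318 to 0.308% ± 0.0101. Complex II moved least, with 0.0552% ± 0.00490 in adult, 0.0696% ± 0.00158 at 1 day, 0.0529% ± 0.00595 at 1 week, 0.0570% ± 0.00739 at 3 weeks and 0.0658% ± 0.000256 in vitro. The summed shares were not tested, since an exact permutation test of 2 libraries against 2 allows no two-sided p below 0.333. The test of each gene follows.

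**Figure D1:**
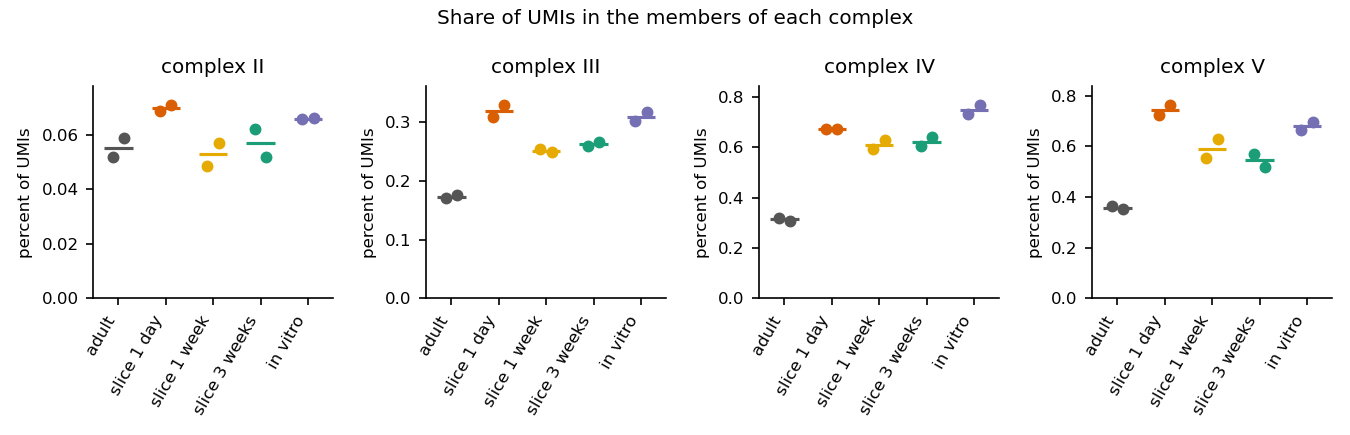
Percent of all UMIs in the members of each complex, with 1 point per library and a line at the mean of the 2 libraries of each group. Complexes III, IV and V lie higher in all 8 culture libraries than in both adult libraries, whereas complex II lies between 0.0487% and 0.0708% in all 10 libraries.

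Gene by gene, 45 members had enough counts for edgeR's quasi-likelihood test, which was fitted to the counts summed over the cells of each library for 12157 genes. A gene was called at an adjusted p below 0.05 (Benjamini-Hochberg over all genes) with a fold change above 1.5. In vitro, 35 members were called higher than in adult, against 22.4% of all genes tested, and 2 were called lower, against 28.5%. At 1 day 36 were higher and 1 was lower, against 24.9% and 25.3% of all genes. When every cell with at least 3 UMIs of the neutrophil and monocyte lists was left out, 116 cells of slice 1 day replicate 1 remained and none of replicate 2. The median log2 fold change of the members at 1 day was then 1.11. At 1 week 33 were higher and 0 lower, against 15% and 13.6%, and 38 members had an unadjusted p below 0.05. Without every cell that had at least 3 UMIs of the neutrophil and monocyte lists, 21 were higher at 1 week, where only the 58 remaining cells of replicate 2 entered. At 3 weeks 32 were higher and 0 lower, against 17.9% and 17.5%, and 37 had an unadjusted p below 0.05. DESeq2 likewise called 0 members lower at 1 week and at 3 weeks.

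The median log2 fold change of the members was 1.33 in vitro, 1.16 at 1 day, 0.99 at 1 week and 0.97 at 3 weeks, whereas the median over all genes tested was -0.11, -0.06, -0.08 and -0.03. These 4 comparisons share the adult libraries and are not independent of each other. Scaling by UMIs per cell in place of TMM moved all genes up by 2.15 in vitro, 1.55 at 1 day, 1.19 at 1 week and 1.08 at 3 weeks on the log2 scale, members included. Within the study label TST11247, the median log2 ratio of the members to adult replicate 2 was 1.01 in slice 3 weeks replicate 2, and within TST11200 it was 0.86 in slice 3 weeks replicate 1 against adult replicate 1. The other cultures have libraries in TST11247 only, and there the median ratio to adult replicate 2 ran from 0.97 to 1.37.

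**Figure D2:**
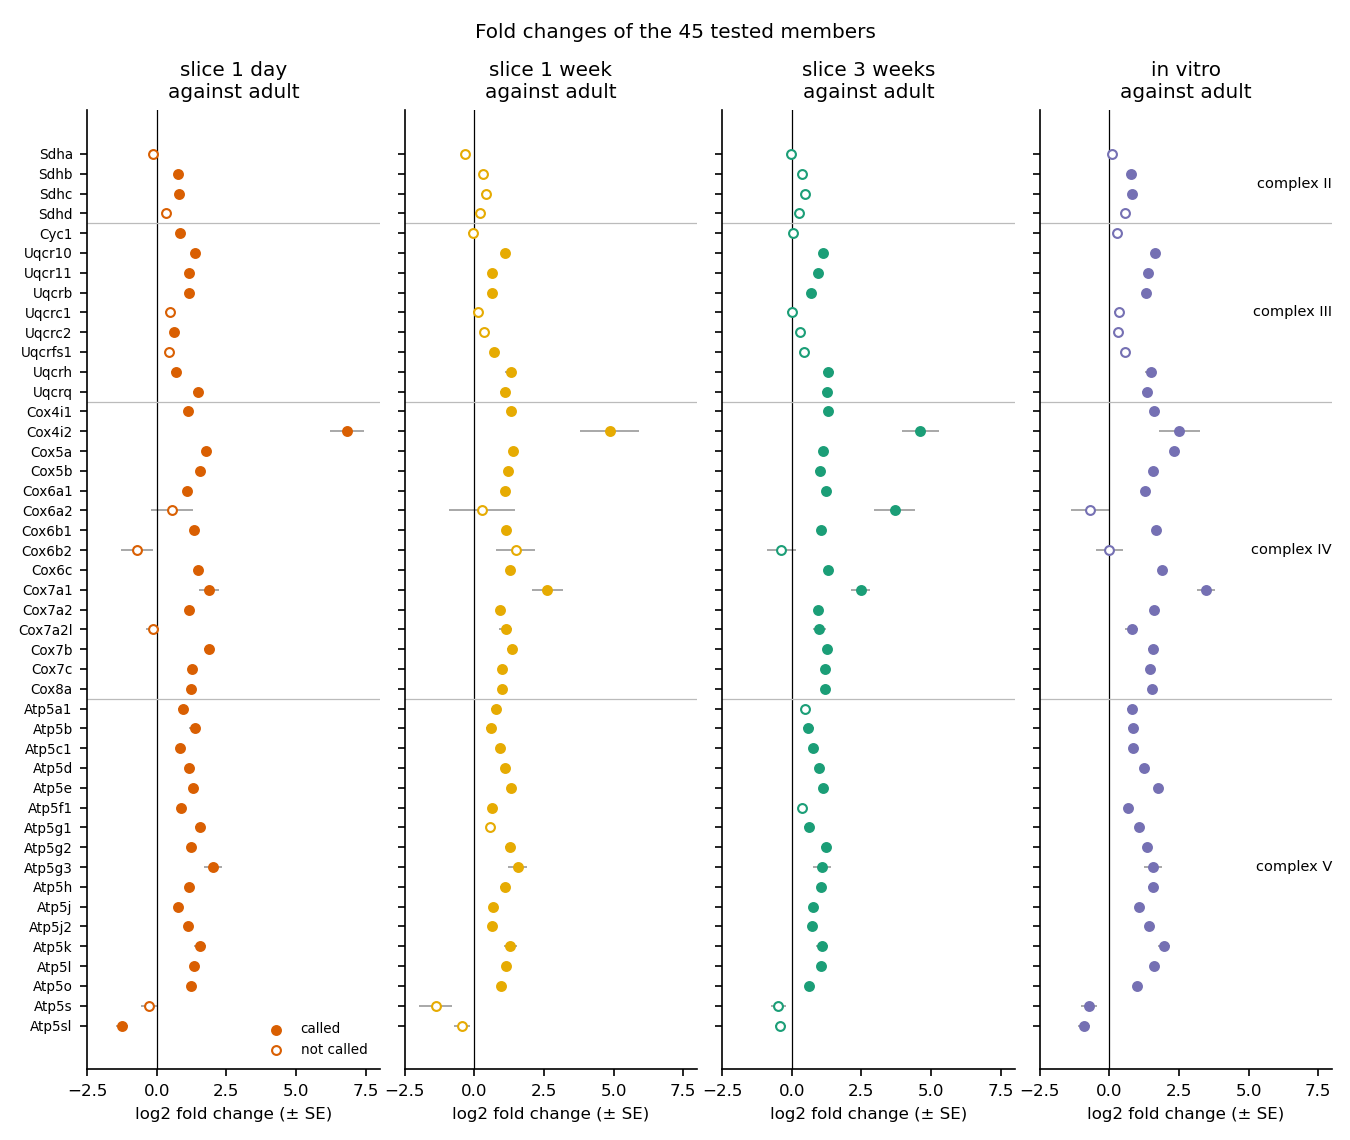
Log2 fold change against adult (± SE) of the 45 tested members in each culture, ordered by complex. Filled points were called and open points were not. Most members of complexes IV and V lie to the right of 0 in all 4 cultures, whereas Sdha and Uqcrc1 were called in none of them and Cyc1 at 1 day only.

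The 250 bases before the transcription starts of members were searched in RefSeq (GRCm38.p6) for the letters of sites that are known from promoters of respiratory genes. These were GCGCATGCG of nuclear respiratory factor 1, CCGGAAG of the ETS factors, which include GABP, AAGATGG of YY1, and TATAAA of the TATA box, each on both strands. Windows were found for 33 of the 46 members and for 27025 genes in all, whether or not these were among the 12157 genes tested. The NRF1 letters stood in 4 of the 33 members (12.1%) and in 1.64% of all genes, and the ETS letters in 9 (27.3%) and in 7.83%. The YY1 letters stood in 1 member (3.03%) and in 5.18% of all genes, and the TATA letters in 1 member (3.03%) and in 14.3%. A match of letters is a description and not a site, and its relation to the fold changes was not tested. The windows of Cox6a1 and Atp5l, which hold both the NRF1 and the ETS letters, of Atp5g2 with the NRF1 letters and of Cox5a, the common subunit that rose most in vitro, with none of the 4, are printed to show this range, 5′ to 3′ on the gene's strand with the matched letters in capitals. They lie at chr5:115348959-115349208 on the minus strand, chr9:44920743-44920992 on the minus strand, chr15:102671048-102671297 on the minus strand and chr9:57520982-57521231 on the plus strand.
Cox6a1: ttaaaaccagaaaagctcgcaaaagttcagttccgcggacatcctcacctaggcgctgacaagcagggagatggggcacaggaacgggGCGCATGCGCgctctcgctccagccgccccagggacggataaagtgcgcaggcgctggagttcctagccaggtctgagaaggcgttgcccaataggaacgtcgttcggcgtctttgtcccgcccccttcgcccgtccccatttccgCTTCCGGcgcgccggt
Atp5l: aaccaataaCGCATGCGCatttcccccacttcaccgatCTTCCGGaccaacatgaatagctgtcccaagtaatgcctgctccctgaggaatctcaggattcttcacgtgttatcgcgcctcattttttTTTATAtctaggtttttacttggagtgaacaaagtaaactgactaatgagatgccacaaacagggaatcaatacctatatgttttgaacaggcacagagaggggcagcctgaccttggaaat
Atp5g2: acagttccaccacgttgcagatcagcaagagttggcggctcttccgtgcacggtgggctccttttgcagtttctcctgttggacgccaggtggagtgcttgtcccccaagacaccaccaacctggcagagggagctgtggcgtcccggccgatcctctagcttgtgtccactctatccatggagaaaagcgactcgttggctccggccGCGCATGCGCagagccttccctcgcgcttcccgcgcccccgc
Cox5a: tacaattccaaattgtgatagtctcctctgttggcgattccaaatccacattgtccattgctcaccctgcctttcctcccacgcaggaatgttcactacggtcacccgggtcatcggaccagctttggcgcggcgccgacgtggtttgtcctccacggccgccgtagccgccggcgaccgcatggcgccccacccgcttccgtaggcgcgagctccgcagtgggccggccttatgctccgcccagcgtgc
In the Cox6a1 and Atp5g2 windows the capitals of the first block cover NRF1 letters on both strands that overlap by all but 1 base, and in the Atp5l window the last block in capitals is the TATA letters on the opposite strand.

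Complex II had the smallest median changes. Sdha, the catalytic flavoprotein subunit (chr13:74322254-74350280), was at 140.1 and 149.7 CPM in the adult libraries, 129.9 and 132 at 1 day, 116 and 112 at 1 week, 153 and 129 at 3 weeks and 155 and 151 in vitro. Its adult libraries lay within the range of the cultures, and it was not called in any comparison, with log2 fold changes of 0.08 ± 0.13, adjusted p = 0.630 in vitro and -0.04 ± 0.13, adjusted p = 0.844 at 3 weeks (± SE throughout). Sdhb, the iron-sulfur subunit, was at 167 and 185 CPM in the adult libraries, 293 and 301 at 1 day, 200.5 and 238 at 1 week, 239 and 211 at 3 weeks and 298 and 302 in vitro. All cultures lay above both adult libraries, but Sdhb rose past the thresholds only in vitro (0.77 ± 0.14, adjusted p = 0.00102) and at 1 day (0.75 ± 0.14, adjusted p = 0.00131). The values at 1 week and 3 weeks were 0.31 ± 0.15 and 0.36 ± 0.14. Sdhc, a membrane anchor subunit, was at 72.9 and 70.6 CPM in the adult libraries, 116 and 133 at 1 day, 89.9 and 102 at 1 week, 108 and 91.5 at 3 weeks and 118 and 134 in vitro. It too rose in vitro (0.81 ± 0.15, adjusted p = 0.000878) and at 1 day (0.80 ± 0.15, adjusted p = 0.00116), with 0.40 ± 0.17 and 0.47 ± 0.15 at the later slice times. Sdhd, the other anchor subunit, was at 89.4 and 108 CPM in the adult libraries, 118 and 128 at 1 day, 114 and 109.9 at 1 week, 128 and 107 at 3 weeks and 144 and 147 in vitro. It passed the thresholds in no culture by edgeR as fitted here, the largest value being 0.56 ± 0.15, adjusted p = 0.00783 in vitro, just under a fold of 1.5 (1.48), and 16 of 22 alternative fits, DESeq2 among them, called it higher there. In all, complex II had 2 of 4 members higher in vitro (3 by DESeq2) and at 1 day and 0 of 4 at 1 week and 3 weeks by edgeR, where DESeq2 called 0 as well and, at an unadjusted p below 0.05 in edgeR, 1 was higher and 1 lower at 1 week and 2 were higher at 3 weeks. Between 3 weeks and 1 day the value of Sdhb was -0.40 ± 0.14, adjusted p = 0.0574, and it was not called. With scaling by library size alone, Sdhb and Sdhc were no longer called in vitro.

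In complex III the small subunits rose in every culture and the larger ones in few. Uqcr10, a small subunit near cytochrome c1, was at 158 and 153 CPM in the adult libraries, 382 and 420.2 at 1 day, 317 and 348 at 1 week, 330.3 and 348 at 3 weeks and 467 and 494 in vitro. It rose in all cultures, with 1.63 ± 0.14, adjusted p = 4.94e-06 in vitro and 1.13 ± 0.14, adjusted p = 0.000142 at 3 weeks. Uqcrq, another small subunit, was at 172 and 187 CPM in the adult libraries, 491 and 515 at 1 day, 456 and 307 at 1 week, 419 and 448 at 3 weeks and 437 and 480.2 in vitro. Its largest change was at 1 day (1.49 ± 0.18, adjusted p = 8.65e-05), and its 1 week libraries lay far apart. Uqcrb was at 276 and 255 CPM in the adult libraries, 565 and 628 at 1 day, 436 and 376 at 1 week, 436 and 417 at 3 weeks and 657 and 679.8 in vitro. It rose in every culture, least at 1 week (0.62 ± 0.14, adjusted p = 0.00930), where scaling by library size or leaving out adult replicate 2 or slice 1 week replicate 1 brought it below the thresholds. Uqcr11, a further small subunit, was called in all 4 cultures, with values from 0.62 ± 0.13 at 1 week to 1.38 ± 0.13 in vitro. Uqcrh, the acidic hinge protein that helps cytochrome c to bind, was at 218 and 177 CPM in the adult libraries, 307 and 326 at 1 day, 521 and 455 at 1 week, 402 and 575 at 3 weeks and 522 and 579.8 in vitro. It lay lower at 1 day (0.68 ± 0.19, adjusted p = 0.0118) than at 1 week (1.31 ± 0.20, adjusted p = 0.000776) or 3 weeks (1.31 ± 0.19, adjusted p = 0.000490), and without adult replicate 2 the 1 day call was lost.

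The 4 subunits of complex III that carry electrons or form its core were each called in at most 1 culture. Cyc1, which is cytochrome c1, was at 121 and 119.8 CPM in the adult libraries, 197 and 234 at 1 day, 114 and 118 at 1 week, 130 and 118 at 3 weeks and 140.2 and 153 in vitro. It rose at 1 day alone (0.85 ± 0.14, adjusted p = 0.000553), and its 3 week libraries lay on either side of both adult ones (0.04 ± 0.14, adjusted p = 0.888). Uqcrc1, a core protein, was at 177 and 200.1 CPM in the adult libraries, 252 and 264 at 1 day, 194 and 219.8 at 1 week, 214 and 159 at 3 weeks and 233 and 242 in vitro. It was called in no culture, with 0.34 ± 0.16, adjusted p = 0.106 in vitro and -0.01 ± 0.16, adjusted p = 0.965 at 3 weeks. Uqcrc2, the other core protein, was called higher at 1 day only (0.60 ± 0.14, adjusted p = 0.00436), at a fold of 1.51. That call was lost in 5 of 22 alternative fits, among them those without slice 1 day replicate 2, with the study label as a covariate and by library size alone. Uqcrfs1, the Rieske iron-sulfur protein, was at 116 and 121 CPM in the adult libraries, 145 and 173 at 1 day, 208 and 176 at 1 week, 151 and 169 at 3 weeks and 164 and 183 in vitro. It passed the thresholds at 1 week only (0.71 ± 0.16, adjusted p = 0.00720), and that call was lost without slice 1 week replicate 1. Its 1 day and in vitro values were 0.43 ± 0.15, adjusted p = 0.0328 and 0.55 ± 0.15, adjusted p = 0.00928, under the fold limit, though 15 of 22 alternative fits called it higher in vitro. Counted together, 5 of 9 members of complex III were higher in vitro, 7 at 1 day, 6 at 1 week and 5 at 3 weeks, and no member had a lower value at an unadjusted p below 0.05 in edgeR or DESeq2, both of which called 0 lower.

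Complex IV had the largest median changes. Of its 15 tested members, 13 were higher in vitro, 12 at 1 day, 13 at 1 week and 14 at 3 weeks, with median log2 fold changes of 1.58, 1.26, 1.22 and 1.19. Cox5a, an early-assembling subunit on the matrix side (chr9:57521274-57532426), was at 139 and 130.4 CPM in the adult libraries, 445 and 479 at 1 day, 357 and 355 at 1 week, 296 and 290.1 at 3 weeks and 660.4 and 703 in vitro. It rose 5.06-fold in vitro (2.34 ± 0.14, adjusted p = 4.11e-07), 3.43-fold at 1 day (1.78 ± 0.13, adjusted p = 4.44e-06) and 2.17-fold at 3 weeks (1.12 ± 0.13, adjusted p = 0.000130). The in vitro libraries lay above every other library for this gene. Cox7b was at 109 and 87.0 CPM in the adult libraries, 352 and 363 at 1 day, 234 and 263 at 1 week, 252 and 219 at 3 weeks and 272 and 309 in vitro. Leaving aside members of low level (average log2 CPM under 5), it had the largest change of complex IV at 1 day (1.87 ± 0.16, adjusted p = 1.02e-05). Cox6b1, which faces the intermembrane space where cytochrome c docks, was at 294 and 259.5 CPM in the adult libraries, 679 and 711 at 1 day, 586 and 642 at 1 week, 618 and 529 at 3 weeks and 867 and 904 in vitro. It rose 3.2-fold in vitro (1.68 ± 0.15, adjusted p = 6.70e-06) and 2.07-fold at 3 weeks (1.05 ± 0.15, adjusted p = 0.000350). Cox8a, a small membrane subunit, was at 353 and 343 CPM in the adult libraries, 836 and 789.6 at 1 day, 753 and 642 at 1 week, 702 and 889.9 at 3 weeks and 973 and 1048 in vitro. It rose in all cultures, from 1.01 ± 0.16 at 1 week to 1.54 ± 0.16 in vitro. Cox5b, Cox6c and Cox7c were also called in all 4 cultures, with values from 0.99 ± 0.13 for Cox7c at 1 week to 1.88 ± 0.14 for Cox6c in vitro.

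Subunit IV of complex IV has a common and a rarer isoform. Cox4i1 (chr8:120668222-120674207), the common isoform, was at 519 and 479 CPM in the adult libraries, 1042 and 1110 at 1 day, 1313 and 1196 at 1 week, 1168 and 1280 at 3 weeks and 1468 and 1589 in vitro. It rose in every culture, with 1.62 ± 0.14, adjusted p = 6.24e-06 in vitro and 1.11 ± 0.14, adjusted p = 9.85e-05 at 1 day. Cox4i2 (chr2:152754173-152765037), known from lung and from cells short of oxygen, was at 0.293 and 0 CPM in the adult libraries, 22.8 and 21.1 at 1 day, 6.91 and 2.56 at 1 week, 6.07 and 3.72 at 3 weeks and 1.41 and 0.785 in vitro. Adult replicate 2 had 0 UMIs of Cox4i2 and adult replicate 1 had 4, so the fitted fold change depends on the small count added in the fit. It was 6.82 ± 0.60, adjusted p = 1.07e-05 at 1 day, 4.86 ± 1.05, adjusted p = 0.00616 at 1 week, 4.62 ± 0.66, adjusted p = 0.000389 at 3 weeks and 2.51 ± 0.74, adjusted p = 0.0143 in vitro, and over the fits without 1 library the 1 day value ran from 6.18 to 11.14. As a plain ratio of its summed UMIs over all UMIs, Cox4i2 was higher than in adult by a factor of 106 (95% counting interval 41.0 to 392) at 1 day, 20.2 (95% counting interval 7.70 to 75.3) at 3 weeks and 4.69 (95% counting interval 1.75 to 17.7) in vitro, intervals that cover counting error only. The 1 day libraries stood far above all others. From 1 day to 3 weeks Cox4i2 fell (-2.21 ± 0.39, adjusted p = 0.00247), and in vitro it was lower than at 3 weeks (-2.11 ± 0.42, adjusted p = 0.00296). The 1 week call rests on 8 UMIs and was lost without slice 1 week replicate 1, and the in vitro call was lost without adult replicate 2 or in vitro replicate 1.

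Cox4i2 stayed the minor isoform throughout. Its share of all Cox4i1 and Cox4i2 UMIs was 0.0564% and 0% in adult, 2.14% (95% interval 1.72 to 2.63) and 1.87% (95% interval 1.62 to 2.14) at 1 day, 0.517% and 0.290% at 3 weeks and 0.0961% and 0.0494% in vitro (exact binomial intervals). At 1 day 10.2% and 12.4% of cells had at least 1 Cox4i2 UMI. After each cell was thinned to 1800 UMIs, which left out shallower cells, the shares were 5.08% and 3.45%, against 0.0591% (2 of 3386 cells) and 0 of 1909 cells in adult. Cells with over 5% of UMIs from the neutrophil and monocyte lists served as background and had 0 of 46 and 0 of 105 with a thinned Cox4i2 UMI in the same 1 day libraries, with median depths of 2389 and 5233 UMIs against 6820 and 8815 in the other cells. The upper 95% limits of those zero counts are 7.71% and 3.45%, so a share like that of the other cells (5.61% and 3.85%) lies within the first limit and just above the second.

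Subunit VIa has a common isoform and a heart and skeletal muscle isoform, and here the 3 week slices stood apart. Cox6a1 (chr5:115345642-115348981), the common isoform, was at 275 and 274 CPM in the adult libraries, 564 and 594 at 1 day, 559 and 619 at 1 week, 651 and 643 at 3 weeks and 644 and 689 in vitro. It rose in all cultures by similar amounts, from 1.08 ± 0.13 at 1 day to 1.28 ± 0.13 in vitro. Cox6a2 (chr7:128205435-128206387), the muscle isoform, was at 8.85 and 14.5 CPM in the adult libraries, 27.2 and 8.96 at 1 day, 17.8 and 5.11 at 1 week, 45.4 and 248 at 3 weeks and 6.77 and 7.54 in vitro. Both 3 week libraries lay above all 8 others, but replicate 2 was far above replicate 1, and the libraries carry different study labels. Against adult the 3 week value was 3.69 ± 0.72, adjusted p = 0.00253, and over the fits without 1 library it ran from 2.05 to 4.49, all called. Within each study label the 3 week level was also the higher one, with 45.4 against 8.85 CPM in TST11200 and 248 against 14.5 CPM in TST11247. Cox6a2 was also higher at 3 weeks than at 1 day (3.14 ± 0.72, adjusted p = 0.00925), a call that was lost without slice 1 day replicate 2 or slice 3 weeks replicate 2, and in vitro it was lower than at 3 weeks (-4.37 ± 0.72, adjusted p = 0.00108). In vitro, at 1 day and at 1 week it was not called against adult, with -0.68 ± 0.70, adjusted p = 0.433 in vitro, where it was called lower with the study label as a covariate (-1.56).

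The share of Cox6a2 among all Cox6a1 and Cox6a2 UMIs was 3.12% and 5.03% in adult, 1.04% and 1.08% in vitro, 6.52% (95% interval 5.87 to 7.21) in slice 3 weeks replicate 1 and 27.8% (95% interval 27.2 to 28.5) in replicate 2. In replicate 2, 48.6% of cells had a Cox6a2 UMI at a median depth of 5266 UMIs, and 19.2% did in replicate 1 at 6112 UMIs. Thinned to 1800 UMIs per cell, the shares were 25.9% and 7.17%, against 1.62% and 2.93% in adult and 1.24% and 1.23% in vitro. No class of cells that should lack the gene was set apart in the 3 week libraries, so free RNA as a source there was not tested. In replicate 2, thinned cells with a P2ry12 UMI, a gene of resting microglia, had Cox6a2 in 23.0%, and cells without one in 29.3%. The gene lies inside Itgad, which runs on the opposite strand and was at 0 CPM in 9 of the 10 libraries and at 0.0931 CPM in slice 3 weeks replicate 2.

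Subunit VIIa showed a different pattern. Cox7a2 (chr9:79755361-79759878), the common isoform, was at 191 and 169 CPM in the adult libraries, 387 and 414 at 1 day, 332 and 343 at 1 week, 347 and 347 at 3 weeks and 523 and 571 in vitro. It rose in every culture and most in vitro (1.61 ± 0.14, adjusted p = 5.79e-06). Cox7a1 (chr7:30184144-30186078), the muscle isoform, was at 1.46 and 1.16 CPM in the adult libraries, 6.02 and 4.22 at 1 day, 10.9 and 2.56 at 1 week, 7.88 and 7.17 at 3 weeks and 13.8 and 16.2 in vitro. It rose 11.1-fold in vitro (3.48 ± 0.33, adjusted p = 1.08e-05) and also at 3 weeks (2.47 ± 0.34, adjusted p = 0.000336) and 1 day (1.87 ± 0.37, adjusted p = 0.00180), and the in vitro libraries were the highest of all. The 1 week call (2.62 ± 0.56, adjusted p = 0.00571) rests on 12 UMIs and was lost without slice 1 week replicate 1. Its share of Cox7a1 and Cox7a2 UMIs went from 0.762% and 0.680% in adult to 2.57% (95% interval 2.33 to 2.82) and 2.76% (95% interval 2.55 to 3.00) in vitro. Cox7a2l (chr17:83501918-83517330), which encodes a related protein that joins complexes III and IV into supercomplexes, was at 294 and 253 CPM in the adult libraries, 271 and 226 at 1 day, 652 and 534 at 1 week, 403 and 685 at 3 weeks and 467 and 490 in vitro. At 1 day its libraries overlapped the adult ones (-0.14 ± 0.23, adjusted p = 0.621), while most other members had already risen there, and it was higher at 1 week (1.12 ± 0.24, adjusted p = 0.00566), 3 weeks (0.99 ± 0.23, adjusted p = 0.00686) and in vitro (0.80 ± 0.23, adjusted p = 0.0128). The rise from 1 day to 3 weeks was called as well (1.14 ± 0.23, adjusted p = 0.00543), though not without slice 1 day replicate 2. Without adult replicate 2 the in vitro and 3 week calls were lost, the in vitro call also with the study label as a covariate (0.65) or by library size alone (0.50), and without slice 1 week replicate 1 the 1 week call. Further isoforms gave little signal: the testis isoform Cox6b2 was at 3.59 and 3.22 CPM in the adult libraries, 2.62 and 1.75 at 1 day, 11.9 and 5.11 at 1 week, 0.905 and 3.86 at 3 weeks and 3.63 and 3.2 in vitro and was called in no comparison, and the muscle isoform Cox8b had 7 UMIs in adult replicate 1, none elsewhere, and was not tested.

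**Figure D3:**
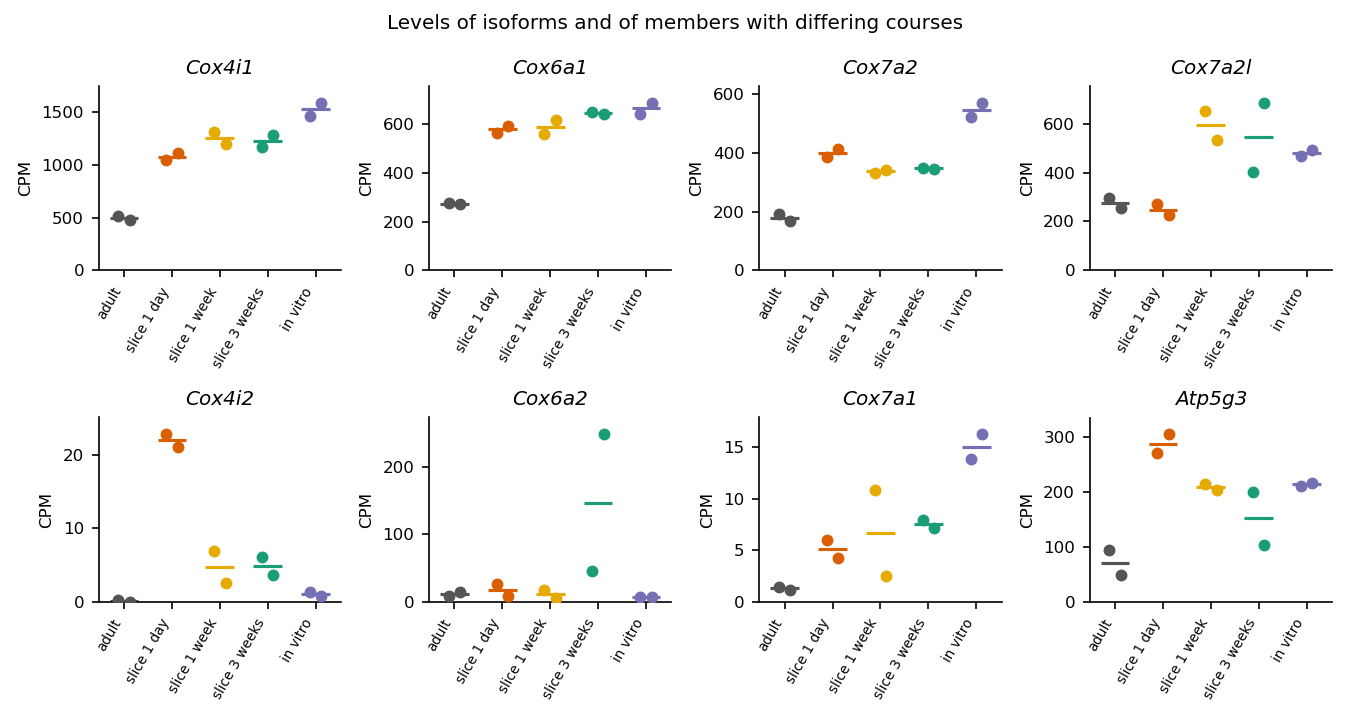
Levels (TMM-scaled CPM) of Cox4i1, Cox4i2, Cox6a1, Cox6a2, Cox7a2, Cox7a1, Cox7a2l and Atp5g3, with 1 point per library and a line at the mean of each group, each axis starting at 0. Cox4i2 peaks at 1 day, Cox6a2 at 3 weeks with its replicates at 45.4 and 248 CPM, and Cox7a1 in vitro, whereas Cox7a2l at 1 day lies beside adult.

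In complex V, all 15 genes that encode subunits of the enzyme were higher in vitro and at 1 day, 14 of them at 1 week and 13 at 3 weeks, with medians of 1.25, 1.21, 0.95 and 0.77. Among the catalytic F1 head, Atp5b, the beta subunit that holds the active sites, was at 340.3 and 344 CPM in adult and rose most at 1 day (1.36 ± 0.19, adjusted p = 0.000174). Atp5a1, the alpha subunit, rose in vitro (0.80 ± 0.17, adjusted p = 0.00218), at 1 day and at 1 week, but at 3 weeks its value was 0.48 ± 0.17, adjusted p = 0.0424. Atp5e, the small epsilon subunit of the central stalk, reached 1.74 ± 0.14, adjusted p = 3.09e-06 in vitro, the largest value of these F1 genes in any culture. Atp5c1 and Atp5d, gamma and delta, were called in all 4 cultures, with values from 0.77 ± 0.14 to 1.25 ± 0.16. Of the peripheral stalk, Atp5f1, subunit b, was at 264 and 269 CPM in the adult libraries, 456 and 508 at 1 day, 404 and 424 at 1 week, 367 and 327 at 3 weeks and 412 and 432 in vitro. It had the smallest rise of complex V in vitro (0.66 ± 0.14, adjusted p = 0.00198) and was not called at 3 weeks (0.38 ± 0.14, adjusted p = 0.0478). Atp5j, coupling factor 6, was at 281 and 295 CPM in the adult libraries, 476 and 505 at 1 day, 453 and 455 at 1 week, 510 and 454 at 3 weeks and 599 and 620.1 in vitro. It rose in all cultures, least at 1 week (0.66 ± 0.14, adjusted p = 0.00530). Atp5h and Atp5o, subunit d and OSCP, were called in all 4, with values from 0.60 ± 0.14 to 1.56 ± 0.15. With scaling by library size alone, Atp5a1, Atp5b, Atp5c1 and Atp5f1 were no longer called in vitro.

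The membrane subunits of complex V also rose. Atp5k, subunit e at the interface of ATP synthase dimers, was at 132 and 95.9 CPM in the adult libraries, 323 and 339 at 1 day, 225 and 340 at 1 week, 268 and 215 at 3 weeks and 421 and 468 in vitro. Its in vitro change was the largest of complex V (1.96 ± 0.22, adjusted p = 3.67e-05), and in vitro it was higher than at 3 weeks too (0.88 ± 0.22, adjusted p = 0.00933). Atp5l, subunit g beside it, was at 296 and 294 CPM in the adult libraries, 719 and 755 at 1 day, 681 and 621 at 1 week, 627 and 592 at 3 weeks and 869 and 929 in vitro. It rose 3.05-fold in vitro (1.61 ± 0.14, adjusted p = 4.98e-06) and 2.07-fold at 3 weeks (1.05 ± 0.13, adjusted p = 0.000204). Atp5j2, subunit f, was called in all 4 cultures, from 0.64 ± 0.14 at 1 week to 1.42 ± 0.14 in vitro.

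Atp5g1, Atp5g2 and Atp5g3 encode the same mature subunit c of the rotor ring with different import sequences, and they took different courses. Atp5g1 was at 189.8 and 206 CPM in the adult libraries, 552 and 598 at 1 day, 269 and 322 at 1 week, 319.8 and 281 at 3 weeks and 401 and 438 in vitro. It rose 2.9-fold at 1 day (1.54 ± 0.15, adjusted p = 2.28e-05) but was only at 0.57 ± 0.16, adjusted p = 0.0194 at 1 week, and it fell from 1 day to 3 weeks (-0.94 ± 0.15, adjusted p = 0.00162). Atp5g2 was at 223 and 177 CPM in the adult libraries, 465 and 477 at 1 day, 447 and 529 at 1 week, 428 and 498 at 3 weeks and 487 and 542 in vitro. It lay in a narrow range above adult, from 1.21 ± 0.17 at 3 weeks to 1.36 ± 0.17 in vitro, and between 1 day and 3 weeks it was not called (-0.03 ± 0.16, adjusted p = 0.933). Atp5g3 (chr2:73908447-73911326) was at 94.0 and 48.5 CPM in the adult libraries, 272 and 305 at 1 day, 215 and 205 at 1 week, 199.7 and 104 at 3 weeks and 211 and 217 in vitro. It had the largest change of complex V at 1 day (2.01 ± 0.33, adjusted p = 0.000516), and its libraries differed within both the adult and the 3 week group, the higher one carrying TST11200 each time. Within study labels the 3 week level was 199.7 against 94.0 CPM and 104 against 48.5 CPM. The 3 week call against adult (1.08 ± 0.32, adjusted p = 0.0214) was lost without adult replicate 2 or slice 3 weeks replicate 1, and the fall from 1 day (-0.93 ± 0.32, adjusted p = 0.0492) was lost in 11 of 22 alternative fits. In the summed UMIs of the 3 genes, Atp5g1 held 42.8% and 43.3% at 1 day, 28.8% and 30.5% at 1 week and, at 3 weeks, 33.8% and 31.8%, with no overlap between 1 day and the later slices, and 37.5% and 47.8% in adult.

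The members called lower than adult in any culture were Atp5sl and Atp5s, which share the symbol but are not subunits of the enzyme. Atp5sl, now named Dmac2 and known for a part in the assembly of complex I, was at 28.5 and 31.1 CPM in the adult libraries, 14.9 and 10.6 at 1 day, 22.7 and 20.5 at 1 week, 18.2 and 26.1 at 3 weeks and 15.2 and 16.5 in vitro. It fell at 1 day (-1.26 ± 0.22, adjusted p = 0.000847) and in vitro (-0.91 ± 0.20, adjusted p = 0.00314), and the in vitro call was lost without in vitro replicate 1. Its 1 week and 3 week values were -0.44 ± 0.29 and -0.41 ± 0.20. Atp5s, a coupling factor also called factor B, was at 10.5 and 8.62 CPM in the adult libraries, 7.59 and 8.13 at 1 day, 1.98 and 7.67 at 1 week, 5.30 and 8.14 at 3 weeks and 5.68 and 5.94 in vitro. It was called in vitro only (-0.73 ± 0.28, adjusted p = 0.0441), and the call held in 5 of 22 alternative fits. Scaled by UMIs per cell, both were higher than adult in vitro (log2 fold change 1.28 for Atp5sl and 1.42 for Atp5s), while all genes had a median of 2.04 there.

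Cultures were also compared directly. Between in vitro and slice 3 weeks, both kept for 3 weeks, 9 of 45 members were higher in vitro (against 13.3% of all genes) and 2 were lower (against 19.9%). The higher ones were Cox5a (1.22 ± 0.13, adjusted p = 7.94e-05), Cox7a1 (1.00 ± 0.27, adjusted p = 0.0136), Atp5k, Atp5j2 (0.69 ± 0.14), Cox7a2 (0.66 ± 0.14), Uqcrb (0.65 ± 0.14), Atp5e (0.63 ± 0.13), Cox6b1 (0.63 ± 0.14) and Cox5b (0.59 ± 0.16), and the lower ones were Cox4i2 and Cox6a2. Of 5 tested markers each of neurons and of oligodendrocytes, 4 and 4 were also lower in vitro than at 3 weeks. So were 10 of 13 microglia markers, whereas 5 of 5 perivascular macrophage markers were higher. Cox5a stood apart, with 660.4 and 703 CPM in vitro against 296 and 290.1 CPM at 3 weeks. The count depended on the scaling and on 1 library: it was 4 higher and 3 lower by library size alone, 41 higher and 2 lower by UMIs per cell, and 15 higher and 3 lower without slice 3 weeks replicate 1. The median over the members was 0.34, beside -0.10 over all genes.

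From 1 day to 3 weeks in slices, 4 of 45 members rose and 8 fell, against 13.9% and 12.8% of all genes. Of the genes that fell, Atp5b (-0.76 ± 0.18, adjusted p = 0.0118), Atp5g1, Atp5g3 and Atp5o (-0.61 ± 0.14, adjusted p = 0.0108) belong to complex V, Cox5a (-0.66 ± 0.13, adjusted p = 0.00478), Cox7b (-0.60 ± 0.16, adjusted p = 0.0168) and Cox4i2 to complex IV, and Cyc1 (-0.80 ± 0.14, adjusted p = 0.00235) to complex III. Those that rose were Uqcrh (0.63 ± 0.19, adjusted p = 0.0310), Cox6a2, Cox7a2l and Atp5sl (0.85 ± 0.22, adjusted p = 0.0167). All 8 neutrophil markers fell between the same groups, as did 6 of 6 monocyte and 4 of 5 perivascular macrophage markers. Of the microglia markers 11 of 13 rose, and of the oligodendrocyte markers 3 of 5 tested. Without the cells in which the neutrophil and monocyte lists exceeded 5% of UMIs, a limit chosen after the data were seen, the count was again 4 higher and 8 lower. Without every cell that had at least 3 UMIs of those lists, 0 were called by edgeR and 10 had an unadjusted p below 0.05, but this left 116 cells of slice 1 day replicate 1 and none of replicate 2. Without slice 1 day replicate 2 it was 0 higher and 3 lower, without slice 3 weeks replicate 2 it was 1 higher and 4 lower, and without the cells that had at least 3 UMIs of the mitosis genes it was 4 higher and 4 lower. Scaled by UMIs per cell it was 1 higher and 9 lower.

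Across complexes, members with a short coding sequence had the larger median change in each culture. The length was taken from GENCODE M21 on GRCm38 for 44 tested members. The 28 members with a coding length under 500 bases had medians of 1.51, 1.25, 1.11 and 1.08 on the log2 scale (in vitro, then slices of 1 day, 1 week and 3 weeks), and 25, 24, 24 and 26 of them were higher. The 16 longer ones, among them Sdha, Uqcrc1, Uqcrc2, Cyc1, Atp5a1 and Atp5b, had medians of 0.78, 0.84, 0.62 and 0.45, with 10, 12, 9 and 6 higher. The gap between both classes in the share higher was widest at 3 weeks (26 of 28 against 6 of 16) and narrowest at 1 day (24 of 28 against 12 of 16). Tested genes that were no members, the complex I genes among them, had the same order at lower values, with medians of 0.41, 0.63, 0.36 and 0.19 for those under 500 bases and -0.13, -0.10, -0.12 and -0.04 for the longer ones, in the order above. Of these genes, 41.0%, 46.1%, 32.5% and 29.3% of the shorter ones and 21.1%, 22.9%, 13.2% and 17.0% of the longer ones were higher. Their gap was thus widest at 1 day and narrowest at 3 weeks, the reverse of the members. A coding length was found for 91.9% of the genes tested.

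**Figure D4:**
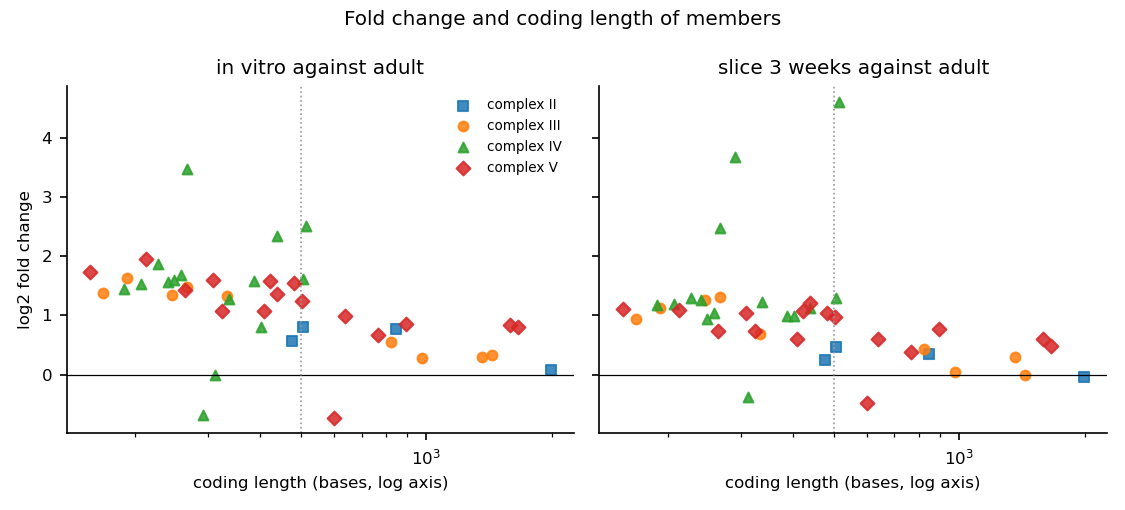
Log2 fold change against adult and coding length (log axis) of the 44 tested members with a coding length, in vitro on the left and at slice 3 weeks on the right, with symbols for the complexes and a dotted line at 500 bases. Left of the line most members lie near or above 1, and the medians right of it are 0.78 and 0.45 against 1.51 and 1.08 left of it.

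The higher shares were also seen in the median cell. That cell had 0.887% and 0.871% of its UMIs in members in adult, 1.69% and 1.81% at 1 day, 1.42% and 1.56% at 1 week, 1.44% and 1.41% at 3 weeks and 1.69% and 1.77% in vitro. Cells with at least 3 UMIs of the mitosis genes had a higher share than the other cells, with medians of 1.97% against 1.64% and 1.98% against 1.69% in the in vitro libraries. They made up at least 7.11% of the cells in every culture library and at most 0.29% of adult cells. That limit was not adjusted for depth, which was lower in adult, with medians of 3257 and 1858 UMIs per cell against 5266 to 13966 in the cultures. Without the cells at or above this limit the counts against adult were 37 higher and 1 lower (in vitro), 36 and 1 (1 day), 32 and 0 (1 week) and 32 and 0 (3 weeks). Cells with over 5% neutrophil and monocyte UMIs had lower shares, with medians of 1.22% and 1.01% at 1 day, and without them the 1 day counts were again 36 higher and 1 lower, and those at 1 week 34 and 0. In absolute terms a cell had 17.2 to 29.5 member UMIs on average in the adult libraries and 88.2 to 273 in the culture libraries, which also have more UMIs per cell in all. Deeper libraries and more RNA per cell cannot be told apart here.

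**Figure D5:**
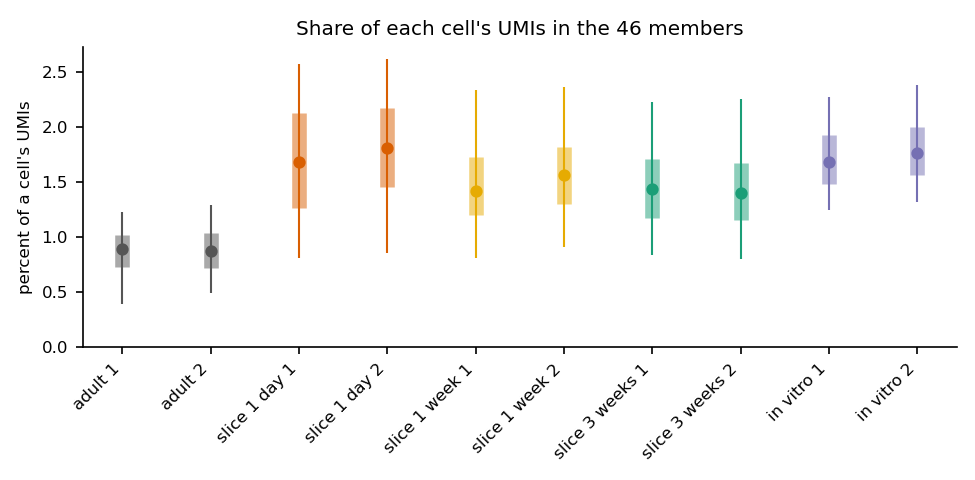
Percent of each cell's UMIs in the 46 members, by library, with points at the median, bars from the 25th to the 75th percentile and lines from the 5th to the 95th. The medians of the 2 adult libraries (0.887% and 0.871%) lie below those of all 8 culture libraries, and counting alone widens bars and lines where cells are shallower.

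Genes that act with the members were followed as well. The 6 genes of complexes III, IV and V on mitochondrial DNA gave 5 higher in vitro, 2 at 1 day, 4 at 1 week and 4 at 3 weeks, with mt-Co1, the catalytic subunit of complex IV, at 2.29 ± 0.18, adjusted p = 3.07e-06 in vitro and 0.99 ± 0.17, adjusted p = 0.000781 at 1 day. Cells with over 5% mitochondrial UMIs had been removed, which bounds these values. Of 37 genes of complex I, 28 were higher in vitro, 23 at 1 day, 17 at 1 week and 18 at 3 weeks, with 0 lower by edgeR or DESeq2 and 0 lower at an unadjusted p below 0.05, and their medians (1.07, 0.75, 0.57 and 0.57) were under those of complexes III, IV and V in all 4 cultures and above those of complex II, differences that were not tested. Of all genes tested, 22.4%, 24.9%, 15% and 17.9% were higher in these cultures. Cycs, which is cytochrome c, rose at 1 day (1.56 ± 0.16, adjusted p = 2.69e-05) and in vitro (0.60 ± 0.16, adjusted p = 0.00767), but not past the thresholds at 1 week (0.15) or 3 weeks (0.29).

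The factors that build the complexes gave smaller medians than the subunits. Of 38 tested assembly and regulatory factors, 11 were higher and 3 lower (in vitro), 13 and 4 (1 day), 9 and 3 (1 week) and 8 and 2 (3 weeks). The shares higher were 28.9%, 34.2%, 23.7% and 21.1% in that order, beside 22.4%, 24.9%, 15% and 17.9% of all genes tested, and the medians were 0.22, 0.31, 0.06 and 0.06. For complex V, Atpif1, the inhibitor of the ATP synthase, was called higher in all 4 cultures (1.48 in vitro), whereas Atpaf1 (-0.88) and Tmem70 (-0.61), which are needed for assembly, were called lower in all 4 by edgeR. DESeq2 called Atpaf1 lower in all but the 1 week slices and Tmem70 at 3 weeks only. Usmg5, a small protein that sits in the enzyme and was counted with this list, was higher in all 4 (1.54 in vitro). For complex IV, Coa5 was higher in all 4 cultures, with 2.02 ± 0.14, adjusted p = 1.09e-06 in vitro. For complex III, Bcs1l, which inserts the Rieske protein, was lower in vitro (-0.70) and at 1 day (-0.95), and Uqcc2 was higher in all 4 (1.59 in vitro).

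Of 10 tested regulators of mitochondrial biogenesis, 0 were higher than adult in any culture by edgeR or DESeq2, nor at an unadjusted p below 0.05 in either, with medians from -0.50 at 1 week to -0.13 at 1 day. Gabpb1, a subunit of the ETS factor GABP, was lower in all 4 by edgeR, with -1.11 ± 0.18, adjusted p = 0.000509 in vitro, and in all but the 1 week slices by DESeq2. Esrra and Tfam were lower at 3 weeks (-0.78 and -0.65). Of 13 enzymes of the citric acid cycle, 5 were higher in vitro, 6 at 1 day, 2 at 1 week and 2 at 3 weeks, and 1 was lower in vitro and at 1 week. Their shares higher were 38.5%, 46.2%, 15.4% and 15.4% in that order, beside 22.4%, 24.9%, 15% and 17.9% of all genes, so those at 1 and 3 weeks were near the background. Citrate synthase, Cs, was higher in all 4 cultures, with 1.02 ± 0.16, adjusted p = 0.000376 in vitro. Of 6 carriers and pores, 2 were higher in vitro, at 1 week and at 3 weeks and 4 at 1 day, and Slc25a3, which brings in phosphate, and Vdac1, the outer membrane pore, were higher in all 4 (1.14 and 0.77 in vitro).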

How the data were processed

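Single-cell libraries were made by the authors with 10x Genomics 3' chemistry and processed with Cell Ranger 1.3.0 on mm10, per the submitters' processing notes. The deposited values are raw UMI counts per gene and cell, and the authors' methods also name an aggregation step. Whether it preceded the deposited tables, how reads from near-identical copies were assigned, whether strand was used and which annotation was taken are not given in the sources used here, and 10 members overlap another protein-coding gene. Intervals cover counting error only.

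Cells with over 5% mitochondrial UMIs, fewer than 400 genes or more than 30000 UMIs were removed, which took 578 of 19637 barcodes. No doublet caller was run. Libraries were compared for shared barcodes, of which a pair held at most 21. Counts were summed per library and tested with edgeR 4.0.16 (TMM, filterByExpr with a minimum count of 10, quasi-likelihood test) in R 4.3.3 over all 5 groups, with limma 3.58.1 as its base. Calls needed a Benjamini-Hochberg adjusted p below 0.05 and a fold change above 1.5. CPM are TMM-scaled. The common biological coefficient of variation was 18.3%. The fit was tested on simulated data. Alternatives were other scalings, filters and cell sets, DESeq2 1.42.0 (Cox8b had no adjusted p), the study label as a covariate, a replicate block and leaving out each library. Replicate numbers did not pair the libraries.

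Members named with every library's value were, per complex, the one with the highest level, those with the largest and smallest change (average log2 CPM of at least 5), all called lower than adult, isoforms and all of complex II. Others were added to account for every member. Members and lists were chosen with earlier results of these data known, and the study itself names oxidative phosphorylation, so the counts are not independent evidence. Positions come from GENCODE M21 on GRCm38, which matched 45 of the 46 members, all but Atp5sl.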

Additional observations from a re-analysis of the deposited data

Results flagged for a closer look

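The changes from adult differed between in vitro and slice 3 weeks, by edgeR's test of that difference at an adjusted p below 0.05 and a fold above 1.5, for 11 members (18 with no limit on the fold). In vitro was higher by a log2 fold change of 1.22 for Cox5a, 1.00 for Cox7a1, 0.88 for Atp5k, 0.69 for Atp5j2, 0.66 for Cox7a2, 0.65 for Uqcrb, 0.63 for Atp5e, 0.63 for Cox6b1 and 0.59 for Cox5b. It was lower for Cox6a2 (-4.37) and Cox4i2 (-2.11).

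Between slice 3 weeks and slice 1 day the changes from adult differed by the same test and limits for 12 members (15 with no limit on the fold). The 3 week value was higher for Cox6a2 (3.14), Cox7a2l (1.14), Atp5sl (0.85) and Uqcrh (0.63). It was lower for Cox4i2 (-2.21), Atp5g1 (-0.94), Atp5g3 (-0.93), Cyc1 (-0.80), Atp5b (-0.76), Cox5a (-0.66), Atp5o (-0.61) and Cox7b (-0.60). Neutrophil and monocyte markers fell between the same groups, and their part in these differences was not tested gene by gene.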

How the results depend on the processing

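The counts against adult stayed within 1.5 times those reported under all alternatives except 1 week without every cell holding neutrophil and monocyte UMIs (21), where fewer cells and only 1 of its libraries entered. In vitro against slice 3 weeks gave 7 members by library size alone, 43 by UMIs per cell and 18 with no limit on the fold. For slice 3 weeks against 1 day, leaving out every cell with at least 3 UMIs of the neutrophil and monocyte lists left 116 cells of slice 1 day replicate 1 and none of replicate 2. The median log2 fold change of the members was then -0.19, beside -0.22 as reported. Leaving out only the cells over 5% of UMIs of those lists gave 4 higher and 8 lower, as reported. Leaving out 1 library gave against adult 35 to 39 members (in vitro), 36 to 37 (1 day), 28 to 34 (1 week) and 28 to 36 (3 weeks), 8 to 18 for in vitro against slice 3 weeks (18 without slice 3 weeks replicate 1) and 3 to 15 for slice 3 weeks against 1 day (3 without slice 1 day replicate 2). A lone library was taken to vary like the other groups. The sign turned for Atp5s (1.42) and Atp5sl (1.28) in vitro and Atp5sl at 1 day (0.30) by UMIs per cell, which moves all genes up, and for the log2 fold change of Cox4i2, slice 1 week against adult, after thinning (-2.45), where it had no counts left. Library size alone moved the median of all genes by -0.30 (in vitro), -0.12 (1 day), -0.22 (1 week) and -0.20 (3 weeks), a shift that the members share. With a replicate block the counts against adult were 35 higher and 1 lower (in vitro), 36 and 1 (1 day), 33 and 0 (1 week) and 32 and 0 (3 weeks), and between cultures 9 and 2 and 4 and 8, in the order above. Same-numbered libraries correlated at -0.135 to 0.123 in their deviations, so the numbers were not taken as pairs. With 2 libraries a group, and 148 and 61 cells at 1 week, a value that missed the thresholds does not show that a gene did not differ.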
